A study of Mus musculus with 4 samples.

Results

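Trem2, Gpnmb, Cd9, Spp1, Lpl, Fabp5, Lgals3, Ctsd, Ctsb and Cd63 are the genes by which lipid-associated macrophages are usually recognised, and they were read here in liver biopsies of mice on the FPC diet, which is rich in fructose, palmitate, trans-fat and cholesterol. The 10 genes were taken by symbol, and all 10 were found among the 33696 genes of the count tables. Male wild-type C57BL/6J mice, 7 weeks old at the start, received the FPC diet with 0.05% or 1.25% cholesterol for 24 weeks, and from then on every mouse received 0.05% until week 32. Livers were sampled by fine-needle aspiration (FNA) at week 24, giving P-LC24 (0.05%) and P-HC24 (1.25%), and the same mice were sampled again at week 32, giving I-LC32 (0.05% throughout) and I-HC32 (1.25%, then 0.05%). All 4 groups thus received the FPC diet, and no group on another diet was analysed here. At week 32 all mice were on 0.05% cholesterol. High and low cholesterol, and ratios between diet groups, there refer to the diet up to week 24. Each group was 1 single-cell RNA-seq library (10x 3' chemistry) of 12 pooled biopsies, 4 from each of 3 mice. P-HC24 was compared with P-LC24 (progression, Prog) and I-HC32 with I-LC32 (intervention, Int), to ask how dietary cholesterol and its later reduction bear on the macrophages that the needle recovered.

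Lipid-associated macrophages are cells of fat-laden tissue that take up dying cells and lipid and break them down in lysosomes. TREM2 is the surface receptor that carries this state: it binds lipids and lipoproteins and signals through the adaptor TYROBP. In fatty liver such cells are known to derive largely from monocytes that replace resident Kupffer cells, and to gather where hepatocytes are laden with fat or where scar forms. The genes read here cover the steps of that programme, from receptor and membrane proteins through secreted factors and lipid handling to lysosomal proteases.

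Cells were grouped by marker UMIs (unique molecular identifiers, each counting 1 captured RNA molecule), and levels are given as CPM, the UMIs of a gene scaled to 1000000 UMIs summed over the cells of a class in a library. Values in runs of 4 give P-LC24 first, then P-HC24, then I-LC32 and last I-HC32. The libraries held 5142 to 7418 cells after quality filters and 41238539 to 86280132 UMIs in them. Because each condition had 1 library of pooled mice, no difference between conditions could be tested, and the intervals given (95%) cover counting error only. A count of 0 is read as a limit of 3 counts, which came to 0.232 to 2.65 CPM in Gata6-type macrophages, 4.35 to 11.1 CPM in other macrophages, 4.17 to 11 CPM in patrolling monocytes and 3.99 to 7.2 CPM in dendritic cells, depending on the library. Pairs of libraries shared 17 to 41 of all cell barcodes. Among kept cells they shared 13 to 36, at most 0.700% of the kept cells of a library.

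Macrophages, defined by complement C1q genes, Vsig4, Timd4 and Mertk, fell into those with marker genes of the large peritoneal macrophage (Gata6, Alox15, Prg4, Ltbp1, Serpinb2), here called Gata6-type macrophages, and the rest, here called other macrophages. Whether the Gata6-type cells came from the liver or from the peritoneal cavity along the needle path cannot be told apart in these data. There were 35, 421, 58 and 613 Gata6-type macrophages and 25, 36, 23 and 32 other macrophages. Clec4f, the defining gene of Kupffer cells, had no UMI in Gata6-type macrophages of any library and stood at 22.3, 0, 5.66 and 66.4 CPM in other macrophages, while Timd4, another gene of resident Kupffer cells, stood at 25.6, 129, 86.3 and 206 CPM in the first and 0, 10.2, 0 and 1.62 CPM in the second. Neither class therefore carried the full marker set of Kupffer cells. Ccr2, the chemokine receptor of monocytes that enter tissue, stood at 323, 913, 625 and 703 CPM in other macrophages and at 2.7 to 35.6 CPM in Gata6-type macrophages. Classical monocytes (90, 94, 170 and 48 cells), patrolling monocytes (76, 77, 45 and 39) and dendritic cells (27, 27, 46 and 41) were read beside them.

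Markers of other cell types were counted in the same cells. Haemoglobin genes, the mark of red cell RNA, summed to 11925, 315, 27617 and 74.5 CPM in other macrophages, 7078, 9069, 17444 and 81.1 CPM in classical monocytes and 23681, 15880.0, 18167 and 133 CPM in patrolling monocytes, so that I-HC32 was low in all 3 classes and P-HC24 in the first. In Gata6-type macrophages they summed to 6017, 4427, 433 and 972 CPM. Hepatocyte genes stayed at or below 11.1 CPM in all 5 classes and cholangiocyte genes at or below 17.1 CPM. With mitochondrial, ribosomal, immunoglobulin and haemoglobin genes left out of the total, 88 log2 ratios of single members stayed near the reported value and 5 moved. Of the medians of the members, 13 stayed and 1 moved. The part of haemoglobin RNA alone was not tested.

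The lysosomal members belong to a gene network that carries the CLEAR element TCACGTG in its promoters, the site read by the transcription factors TFEB and TFE3. RefSeq promoter stretches (GRCm38.p6, 250 bases before to 50 after the start site) were at hand for 7 of the 10 genes (not for Lpl, Fabp5 and Ctsb) and for 29 of 36 related genes of lysosome, lipid handling and TREM2 signalling. Both strands were searched, where a match on 1 strand can overlap a match on the other. TCACGTG lay in 1 of the 7, Ctsd, and in 4 of the 29, Plcg2, Lamp1, Lgmn and Plin2. Over all genes it lay in 4.29% of 27025 genes and in 3.77% of their 32851 promoters. The related element TCATGTG, read by MITF, lay in none of the 7 and in 3 of the 29 (Ctss, Grn and Mmp12), against 4.31% of all genes. The 5 promoters with the CLEAR letters are shown because ratios of Ctsd, Lgmn and Plcg2 are among those given here, each as 27 bases with the match in capitals, read 5' to 3' on the gene's strand and placed by a single match in GRCm39. Ctsd lies at chr7:141941647-141941673 on the reverse strand, Lamp1 at chr8:13209089-13209115 on the forward strand, Lgmn at chr12:102405385-102405411 on the reverse strand, Plcg2 at chr8:118224983-118225009 on the forward strand and Plin2 at chr4:86588285-86588311 on the reverse strand. In Lamp1 the first of 4 matches is shown.
Ctsd: cgcccgcgtcTCACGTGacccgttgag
Lamp1: gggcaagataTCACGTGgtccagcgcc
Lgmn: ggaatgtctgTCACGTGgtccatttta
Plcg2: ccccgaggagTCACGTGgcgcggccgc
Plin2: agctgggctaTCACGTGgctcggaggc
The matches begin 99, 62, 50, 21 and 5 bases before the start sites, in the order of the lines. They are a description of letters in a window, and say nothing of binding in these cells.

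Trem2 (ENSMUSG00000023992; GRCm39 chr17:48653429-48661175, forward strand, 5 exons in the canonical transcript), the lipid receptor, was highest in other macrophages in 3 libraries and in classical monocytes in I-HC32. Its levels in other macrophages were 323, 309, 113 and 30.8 CPM, from 87, 213, 40 and 19 UMIs. Both week 24 libraries thus lay above both week 32 libraries, and I-HC32 was the lowest. In classical monocytes Trem2 stood at 91, 74.7, 77 and 54.6 CPM, in patrolling monocytes at 23.6, 35.6, 50.7 and 44.2 CPM and in Gata6-type macrophages at 11.5, 16.3, 21.1 and 16.8 CPM. Dendritic cells had no Trem2 UMI in any library, and B cells, which should lack the gene, stood at 0.123, 0.0934, 0.0215 and 0.07 CPM. At an equal depth of 5000 UMIs per cell, 33.3%, 30%, 33.3% and 20% of other macrophages and 26.4%, 26.1%, 27.3% and 23.3% of classical monocytes held a Trem2 UMI, against 5.71%, 7.71%, 3.57% and 8.71% of Gata6-type macrophages and 0.0907%, 0%, 0% and 0.0236% of B cells. Cells with fewer than 5000 UMIs were left out of these shares. Before thinning the shares were 32, 55.6, 34.8 and 37.5% in other macrophages (median depth 8893 to 19885 UMIs) and 0.0923, 0.086, 0.02 and 0.0796% in B cells (5956 to 9012 UMIs).

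None of the Trem2 ratios between diet groups had an interval clear of 0. The log2 ratio of P-HC24 to P-LC24 was -0.06 (95% counting interval -0.43 to 0.31) in other macrophages and -0.29 (-0.68 to 0.11) in classical monocytes. In Gata6-type macrophages it was 0.50 (-0.31 to 1.44), from 13 UMIs in P-LC24. At week 32 the ratio of I-HC32 to I-LC32 was -0.32 (-0.86 to 0.26) in Gata6-type macrophages and -0.50 (-1.08 to 0.05) in classical monocytes. Without the 2 cells of each library with the most Trem2, a comparison chosen after the data were seen, the value in Gata6-type macrophages became 0.26. In other macrophages the 40 and 19 UMIs at week 32 were too few for a ratio by the limits used. Within the high cholesterol mice, I-HC32 against P-HC24 gave -3.33 (-4.09 to -2.65) in other macrophages and -2.33 without the 2 top cells of each library, and within the low cholesterol mice I-LC32 against P-LC24 gave -1.51 (-2.09 to -0.96).

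Gpnmb (ENSMUSG00000029816; GRCm39 chr6:49013426-49047863, forward strand, 11 exons), a membrane glycoprotein of phagosomes and lysosomes, stood at 267, 87.1, 19.8 and 1.62 CPM in other macrophages and 56, 1.46, 1.48 and 6.62 CPM in classical monocytes. Levels in Gata6-type macrophages were 0.884, 0.639, 0 and 1.16 CPM, and patrolling monocytes and dendritic cells had no UMI of it. Of the 326 Gpnmb UMIs in all kept cells, 42.9% lay in other macrophages, 24.8% in classical monocytes, 20.9% in cells that passed no gate and 6.75% in Gata6-type macrophages. The log2 ratio in other macrophages at week 24 was -1.62 (-2.14 to -1.10), lower in P-HC24, and it turned to 0.27 without the 2 top cells of each library. In that class 72 UMIs came from 4 of 25 cells in P-LC24, with 45 in 1 cell, and 60 UMIs came from 5 of 36 cells in P-HC24, with 26 in 1 cell. At week 32 there were 7 UMIs in 1 cell of I-LC32 and 1 UMI in I-HC32.

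Trem2 and Gpnmb met in few cells. In all kept cells 17 held at least 2 UMIs of both, 6 in P-LC24, 5 each in P-HC24 and I-LC32, and 1 in I-HC32. These 17 cells held 243 of the 326 Gpnmb UMIs (74.5%) and 316 of the 1468 Trem2 UMIs (21.5%). By gate they were 3 other macrophages and 3 classical monocytes in P-LC24, 5 other macrophages in P-HC24, 1 other macrophage and 4 cells that passed no gate in I-LC32, and 1 classical monocyte in I-HC32. The share of a library's Gpnmb UMIs in such cells was 82.5%, 84.5%, 84.2% and 7.89%. Over the 116 other macrophages of the 4 libraries, 10 of the 11 cells with a Gpnmb UMI also had Trem2, while 10 of the 48 cells with Trem2 also had Gpnmb. All 11 Gpnmb cells had Lpl, Lgals3, Ctsd and Ctsb. These genes were common throughout the class, from Lpl in 89 to Ctsb in 110 of the 116 cells. Their presence alone therefore did little to set the Gpnmb cells apart. Cells of 1 library share their mice and depth, so these counts describe the libraries and were not tested.

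**Figure D1:**
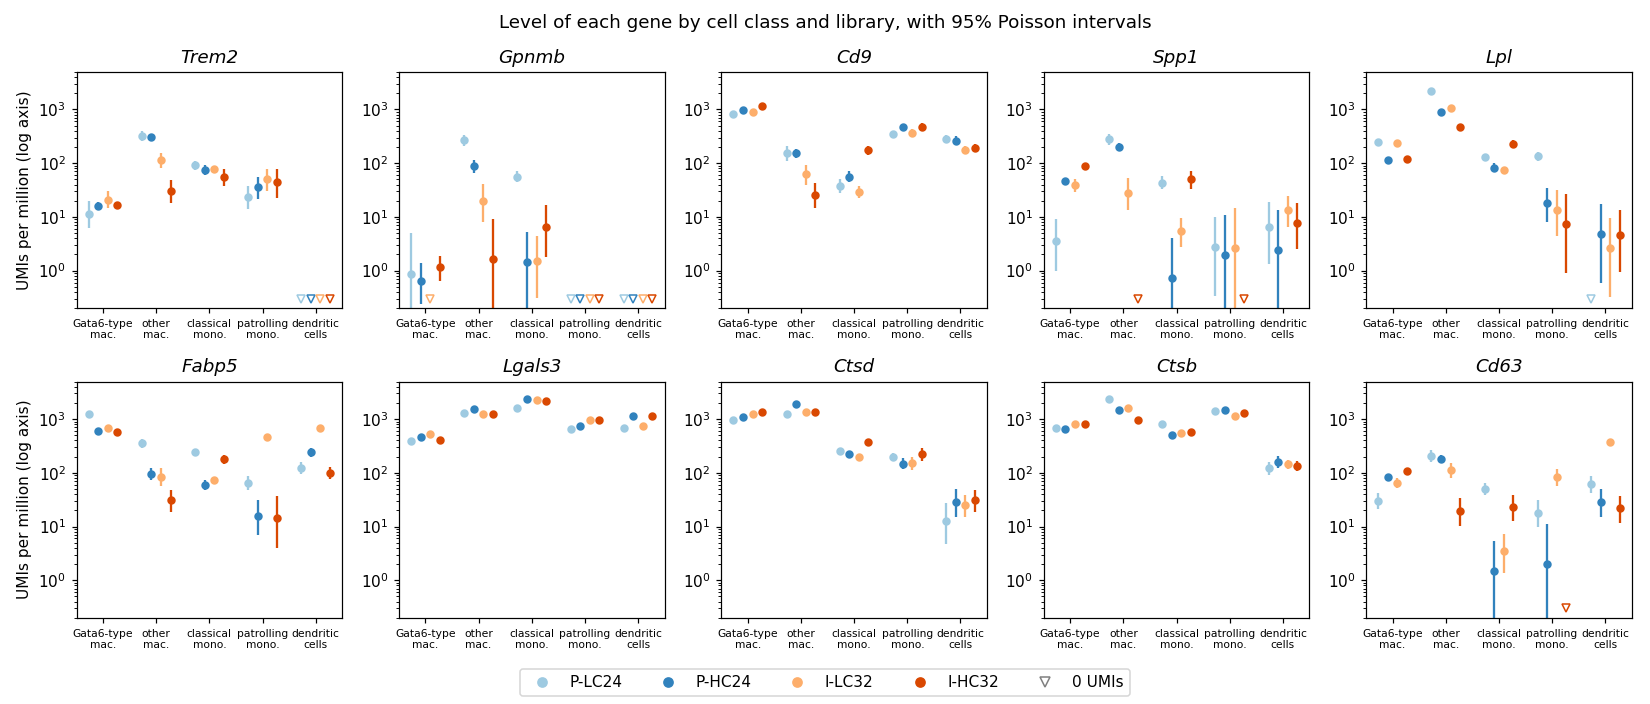
Level of each of the 10 genes (CPM, log axis) in the 5 myeloid classes, with 1 point per library, bars for the 95% counting interval and open triangles for 0 UMIs. Trem2 and Gpnmb lie highest in other macrophages in 3 of the 4 libraries, Cd9 lies highest in Gata6-type macrophages and Lgals3 in classical monocytes in all 4, and no Trem2 or Gpnmb was counted in dendritic cells.

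The tetraspanins Cd9 and Cd63, membrane organisers of the cell surface and of late endosomes, did not follow Trem2. Cd9 (ENSMUSG00000030342; GRCm39 chr6:125437210-125471778, reverse strand) was highest among the 5 classes in Gata6-type macrophages in all 4 libraries, at 829, 959, 911 and 1181 CPM against 152, 154, 62.2 and 25.9 CPM in other macrophages. Neutrophils stood in the same range, at 1357, 1577, 924 and 1527 CPM, and B cells, at 36.5 to 77.5 CPM, held 22.7% of all Cd9 UMIs by their number. Both high cholesterol libraries were above their low cholesterol partners in Gata6-type macrophages, with log2 ratios of 0.21 (0.11 to 0.31) at week 24 and 0.37 (0.29 to 0.45) at week 32, although the week 24 value was -0.32 with mean UMIs per cell in place of CPM. Patrolling monocytes gave 0.42 (0.16 to 0.68) and 0.36 (0.00 to 0.71). The largest Cd9 ratio, 2.55 (2.08 to 3.04), was in classical monocytes at week 32, where levels were 38.1, 56.4, 29.6 and 174 CPM, and it was 1.77 without the 2 top cells of each library.

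Cd63 (ENSMUSG00000025351; GRCm39 chr10:128731528-128748709, forward strand) stood at 30.1, 82, 65.2 and 107 CPM in Gata6-type macrophages. The log2 ratios there were 1.45 (0.95 to 1.99) at week 24 and 0.72 (0.42 to 1.03) at week 32, and 1.75 and 1.11 without the top cells. In other macrophages Cd63 was 208, 180.0, 113 and 19.4 CPM, with I-HC32 again the lowest, and its log2 ratio was -0.21 (-0.67 to 0.27) at week 24. Mast cells and basophils held far more, 951, 1364, 1247 and 1179.5 CPM. In dendritic cells the I-LC32 library stood out, at 62, 28.8, 381 and 21.7 CPM.

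Spp1 (ENSMUSG00000029304, GRCm39 chr5:104582165-104589235, forward strand, 7 exons) encodes the secreted matrix protein osteopontin. It had the largest ratio between diet groups of the 9 members compared in Gata6-type macrophages. Its levels there were 3.54, 46, 38.8 and 90.0 CPM, from 4, 432, 59 and 1166 UMIs. The log2 ratio was 3.70 (2.33 to 5.58) at week 24, a 13-fold difference set by 4 UMIs in P-LC24, and 1.21 (0.83 to 1.62) at week 32, with both high cholesterol libraries above their partners. Without the 2 top cells of each library the week 32 value was 1.91. I-HC32 was also above P-HC24, with a log2 ratio of 0.97 (0.81 to 1.13). At 5000 UMIs per cell, 0%, 7.71%, 8.93% and 12.7% of Gata6-type macrophages held an Spp1 UMI, against 0%, 0.121%, 0.0286% and 0.188% of B cells, and before thinning 8.57, 13.8, 15.5 and 21.2% did so, at medians of 29497, 21525, 23107 and 20698 UMIs. The 0 of 35 cells in P-LC24 was read against the limit of 3 counts, which is 8.57% and not an interval. Before thinning 3 of these 35 cells held an Spp1 UMI.

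Spp1 in Gata6-type macrophages was carried by a few strong cells. Cells with 5 or more Spp1 UMIs, a limit chosen after the data were seen, numbered 0 of 35, 27 of 421, 6 of 58 and 56 of 613. Those 27, 6 and 56 cells held 384 of 432, 52 of 59 and 1026 of 1166 Spp1 UMIs. By summed UMIs, Trem2 was at 15, 0 and 13.2 CPM in them and at 16.4, 22.6 and 17.2 CPM in the remaining Gata6-type macrophages. The 0 rests on the 6 cells of I-LC32, and none of these differences was tested. Gpnmb was at 0, 0 and 3.89 CPM against 0.682, 0 and 0.857 CPM. Lpl was at 145, 86.1 and 48.2 CPM against 115, 249 and 128 CPM, lower in the strong cells of both week 32 libraries and higher in those of P-HC24. Of the 200 Gata6-type macrophages with any Spp1 UMI, 35 (17.5%) had Trem2, while 245 of all 1127 had it.

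In other macrophages Spp1 took another course. It stood at 278, 199, 28.3 and 0 CPM, and I-HC32 had no UMI of it, which allows up to 4.86 CPM. Against P-HC24, with 137 UMIs, Spp1 in I-HC32 was at least 40.9-fold lower by a floor of 3 counts in the library. The log2 ratio at week 24 was -0.48 (-0.90 to -0.06), and -0.02 without the top cells. Its sign rested on the scaling, since it was 0.34 with mean UMIs per cell and 1.28 with the mean of each cell's own share. Here 3 cells held the 75 UMIs of P-LC24, 64 of them in 1 cell, and 5 cells held the 137 UMIs of P-HC24, 101 of them in 1 cell. Classical monocytes stood at 43.6, 0.732, 5.43 and 49.7 CPM, with 45 of the 56 UMIs of P-LC24 in 1 cell.

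Lgals3 (ENSMUSG00000050335; GRCm39 chr14:47605208-47623624, forward strand, 6 exons), the secreted galectin-3, was a general gene of this compartment. It was highest in classical monocytes in all 4 libraries, at 1604, 2385, 2289 and 2165 CPM. Other macrophages followed at 1291, 1565, 1264 and 1266 CPM, and Gata6-type macrophages were lowest of the 5 classes at 390.0, 473, 533 and 408 CPM. At week 24 it was higher in P-HC24 in 4 of the 5 classes past 1.2-fold, with log2 ratios of 0.28 (0.14 to 0.42) in Gata6-type macrophages, 0.28 (0.10 to 0.46) in other macrophages, 0.57 (0.49 to 0.65) in classical monocytes and 0.79 (0.58 to 1.00) in dendritic cells. The value of Gata6-type macrophages was -0.26 with mean UMIs per cell. At week 32 the ratio of dendritic cells was 0.59 (0.43 to 0.75) and that of Gata6-type macrophages -0.39 (-0.49 to -0.28), while those of other macrophages, classical and patrolling monocytes lay between -0.08 and 0.01. The makeup of the dendritic cells differed alongside: Xcr1, a gene of cross-presenting dendritic cells, was at 259, 55.2, 73.1 and 21.7 CPM and Cd209a, a gene of monocyte-related dendritic cells, at 302, 1274, 546 and 1014 CPM, and their part in the Lgals3 ratio was not tested.

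**Figure D2:**
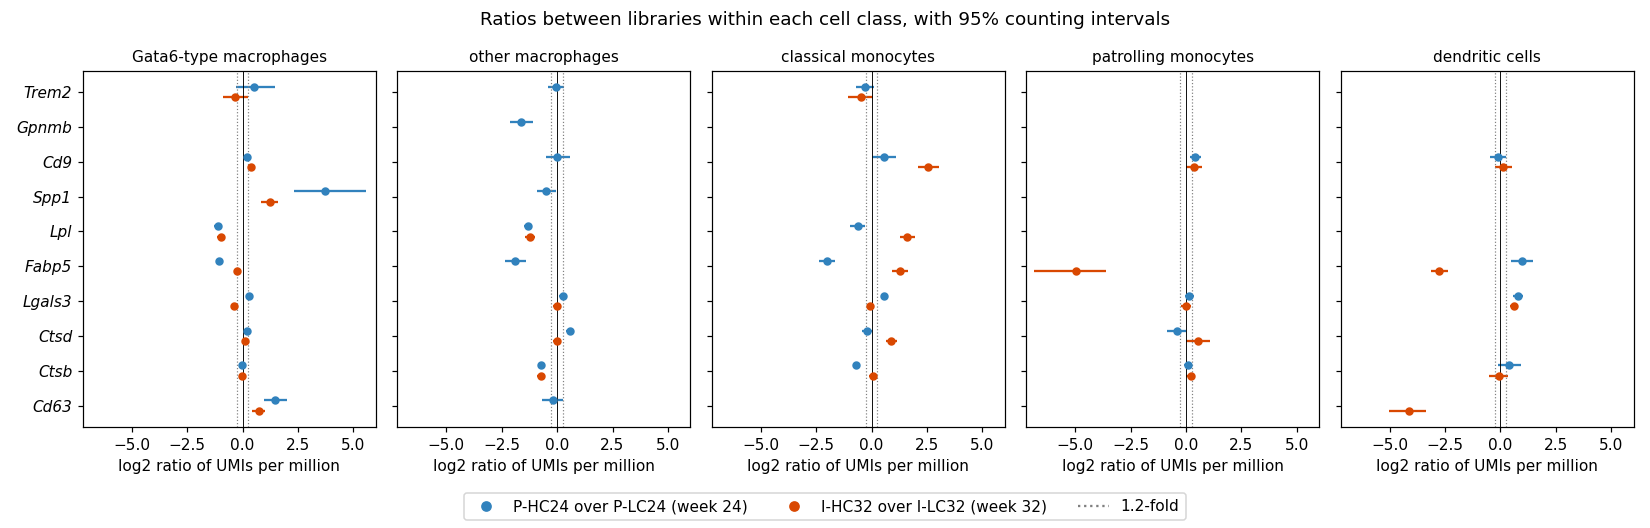
Log2 ratio of each gene between libraries within a class, P-HC24 to P-LC24 and I-HC32 to I-LC32, with 95% counting intervals, for genes with enough UMIs; dotted lines mark 1.2-fold. Lpl lies below 0 in both macrophage classes at both weeks, Spp1 and Cd63 lie above 0 in Gata6-type macrophages, and Fabp5 spans the widest range.

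Of the lipid-handling genes, Lpl, by summed UMIs, differed the same way between the diet groups in both macrophage classes at both weeks. It (ENSMUSG00000015568; GRCm39 chr8:69284603-69360100, forward strand, 10 exons), which encodes the lipase that frees fatty acids from triglyceride-rich lipoproteins, was highest in other macrophages in all 4 libraries, at 2226, 896, 1069 and 465 CPM. Gata6-type macrophages held 251, 117, 238 and 120.4 CPM. In both classes and at both weeks the library of the high cholesterol mice was the lower: the log2 ratio was -1.31 (-1.48 to -1.15) and -1.20 (-1.43 to -0.98) in other macrophages and -1.11 (-1.30 to -0.91) and -0.98 (-1.15 to -0.81) in Gata6-type macrophages. Without the 2 top cells of each library these became -0.89, -0.49, -0.67 and -0.76, smaller in size and of the same sign. Single cells were strong in the other macrophages, with 177, 123, 193 and 35 Lpl UMIs in the highest cell of each library. The median other macrophage held 2.80, 3.34, 4.84 and 3.18 Lpl UMIs per 10000, so that at week 24 it was higher in P-HC24. The median Gata6-type macrophage held 1.04, 0.487, 0.791 and 0.424, lower in the high cholesterol mice at both weeks. Classical monocytes did not share the direction at week 32: their levels were 128, 82.8, 73.5 and 225 CPM and their log2 ratios -0.63 (-0.99 to -0.28) and 1.61 (1.27 to 1.96). NK cells, neutrophils and mast cells had no Lpl UMI.

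Fabp5 (ENSMUSG00000027533; GRCm39 chr3:10077602-10081674, forward strand, 4 exons), a cytosolic fatty acid carrier, was highest in Gata6-type macrophages in 3 libraries and in dendritic cells in I-LC32. P-LC24 stood apart in Gata6-type macrophages, at 1265, 610.2, 674 and 574 CPM, and the log2 ratio was -1.05 (-1.14 to -0.97) at week 24 and -0.23 (-0.33 to -0.14) at week 32, and -0.80 at week 24 without the top cells. The difference was not limited to a few cells: the median cell held 12.4, 3.51, 4.07 and 3.39 Fabp5 UMIs per 10000. Cycling genes moved with it, with Mki67 at 102, 23.5, 50.7 and 33.1 CPM and Top2a at 123, 36, 46.7 and 33.4 CPM in the same cells, and their part in the Fabp5 ratio was not tested. Other macrophages gave -1.88 (-2.36 to -1.41) at week 24, from levels of 352, 95.8, 84.8 and 30.8 CPM, and -1.13 without the top cells.

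Of the lysosomal proteases, Ctsd (ENSMUSG00000007891; GRCm39 chr7:141929646-141941775, reverse strand, 9 exons), cathepsin D, was highest in other macrophages in all 4 libraries, at 1269, 1887, 1377 and 1376 CPM, and Gata6-type macrophages followed closely at 955, 1102, 1269 and 1373 CPM. In I-HC32 the levels of the 2 classes, 1376 and 1373 CPM, did not differ beyond counting error. Monocytes were lower, at 198 to 369 CPM in the classical and 148 to 221 CPM in the patrolling class, and dendritic cells lowest, at 12.8 to 31.1 CPM. Its log2 ratios in Gata6-type macrophages were small, 0.21 (0.12 to 0.30) at week 24 (-0.33 with mean UMIs per cell) and 0.11 (0.05 to 0.18) at week 32, and in other macrophages 0.57 (0.40 to 0.75) and 0.00 (-0.16 to 0.16).

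Ctsb (ENSMUSG00000021939; GRCm39 chr14:63358384-63383372, forward strand, 10 exons), cathepsin B, was highest in other macrophages in 3 libraries and in patrolling monocytes in I-HC32, with 2389, 1462, 1603 and 957 CPM in the first and 1391, 1459.6, 1125 and 1299 CPM in the second. In other macrophages it was lower in the high cholesterol mice at both weeks, with log2 ratios of -0.71 (-0.85 to -0.56) and -0.74 (-0.91 to -0.58), and -0.46 and -0.48 without the top cells. With mean UMIs per cell the week 24 value was 0.12, on the other side of 0. Gata6-type macrophages showed no such difference, at -0.04 (-0.15 to 0.07) and -0.03 (-0.12 to 0.06).

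Read as a group, the genes had no shared direction in Gata6-type macrophages. Of 9 compared at week 24 (Gpnmb had too few UMIs), P-HC24 exceeded P-LC24 by 1.2-fold or more for 4 (Trem2, Spp1, Lgals3 and Cd63), where 21.0% of all 7162 genes compared were higher, and 2 were lower (Lpl and Fabp5), where 36.3% of all genes were. Their median log2 ratio was 0.21, against -0.12 over all genes, and it was -0.32 with mean UMIs per cell in place of CPM. At week 32, 3 of 9 were higher in I-HC32 (Cd9, Spp1 and Cd63; 16.3% of all genes) and 3 lower (Trem2, Lpl and Lgals3; 29.3%), with a median of -0.03 against -0.09. Spp1, Cd63 and Lpl kept their direction past 1.2-fold at both weeks. Over time, I-HC32 against P-HC24 gave 5 of 9 higher (29.4% of all genes) and none lower (9.53%), with Spp1 at 0.97, Cd63 at 0.39, Ctsd at 0.32, Cd9 at 0.30 and Ctsb at 0.28. I-LC32 against P-LC24 gave 4 of 7 higher (Cd63, Lgals3, Ctsd and Ctsb; 28.7%) and 1 lower, Fabp5 at -0.91 (21.2%).

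In other macrophages the counts between the diet groups are read against the shares over all genes. At week 24 all 10 members were compared: 5 were lower in P-HC24 (Gpnmb, Spp1, Lpl, Fabp5 and Ctsb), against 37.4% of all genes, and 2 higher (Lgals3 and Ctsd), against 29.8%, with a median of -0.35 against -0.06. The sign of that median rested on the scaling, since it was 0.48 with mean UMIs per cell and 0.33 with the mean of each cell's own share. At week 32 only 4 had enough UMIs: Lpl and Ctsb were lower (26.4% of all genes), none was higher (26.2%), and the median was -0.37 against 0.00. The members differed further over time. All 8 members compared were lower in I-HC32 than in P-HC24, against 20.8% of all genes lower and 28.5% higher. Trem2 was at -3.33, Cd63 at -3.21, Cd9 at -2.57 and Lpl at -0.95. Spp1, with 0 UMIs in I-HC32, had no finite ratio and was counted as the lowest. The median was -1.76 against 0.04, and -0.99 with the doublets called by Scrublet removed. Without the 2 top cells of each library Lgals3 was at -0.18, inside 1.2-fold, and the others with a finite ratio stayed lower past it. I-LC32 was lower than P-LC24 in 4 of 6 (34.3% of all genes), Trem2, Lpl, Fabp5 and Ctsb, and higher in none (28.4%). These values rest on 23 to 36 cells per library.

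The other macrophages were themselves of mixed kind. Apoe, the lipoprotein ligand of TREM2, stood at 9844, 6877, 3625 and 1742 CPM in the class and Retnla, a gene of alternatively activated macrophages, at 3161, 28697, 15907 and 29954 CPM, so that the libraries differed in the balance of the pair. Cells with more Apoe than Retnla UMIs, a split chosen after the data were seen, numbered 23 of 25, 17 of 36, 17 of 23 and 7 of 32. Trem2 was at 378, 878, 215 and 109.9 CPM in them and at 0, 50.7, 35 and 20.2 CPM in the rest. Gpnmb was at 313, 279, 45.6 and 13.7 CPM in them and had no UMI in the rest in any library. Within the class Gpnmb thus lay in the Apoe-rich cells alone, of which I-HC32 had 7 and P-HC24 had 17.

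Within the Apoe-rich cells alone, the week 32 libraries were the lower for several members. Spp1 stood at 326, 632, 65.2 and 0 CPM in them, Cd9 at 178, 451, 143 and 124 CPM and Cd63 at 243, 404, 241 and 137 CPM. P-HC24 was the highest for all 3 genes, but 1 of its Apoe-rich cells held 101 Spp1, 43 Cd9 and 41 Cd63 UMIs. All other macrophages of that library together held 137, 106 and 124. For Cd63, I-LC32 and P-LC24 were nearly equal, at 241 and 243 CPM. For Lpl the order was different, 2499, 1468, 1668 and 398 CPM, with P-LC24 the highest and I-HC32 the lowest, and in the rest Lpl was at 634, 635, 609 and 474 CPM. Fabp5 was at 404, 265, 13 and 13.7 CPM in the Apoe-rich cells. Lgals3 differed little between the subsets, at 1273, 1728, 1095 and 1236 CPM and 1395, 1490.3, 1394 and 1270.2 CPM. The 2 cells outside the Apoe-rich set in P-LC24 and the 7 inside it in I-HC32 leave the extremes of these subsets thinly measured. The part of the balance of Apoe-rich and other cells in the ratios over time was not tested.

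**Figure D3:**
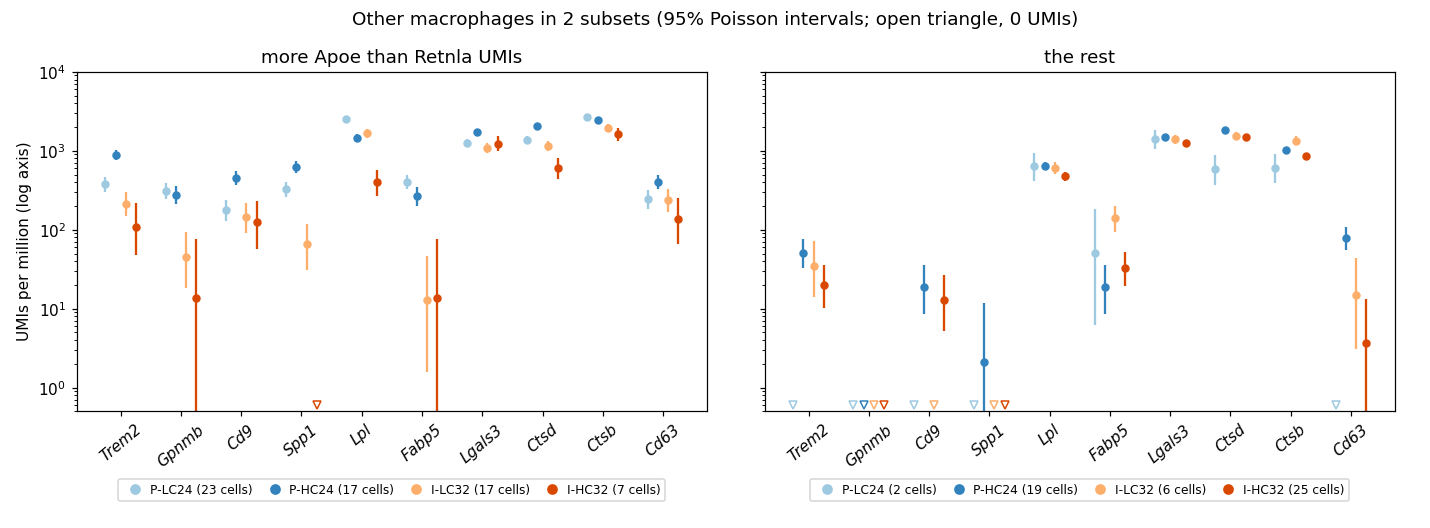
Level (CPM, log axis) of the 10 genes in other macrophages split by whether a cell had more Apoe than Retnla UMIs, by library, with 95% counting intervals and open triangles for 0 UMIs. Trem2, Gpnmb and Spp1 lie higher in the Apoe-rich cells of P-LC24, P-HC24 and I-LC32 than in the rest of the class, where Gpnmb is at 0 in every library.

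**Figure D4:**
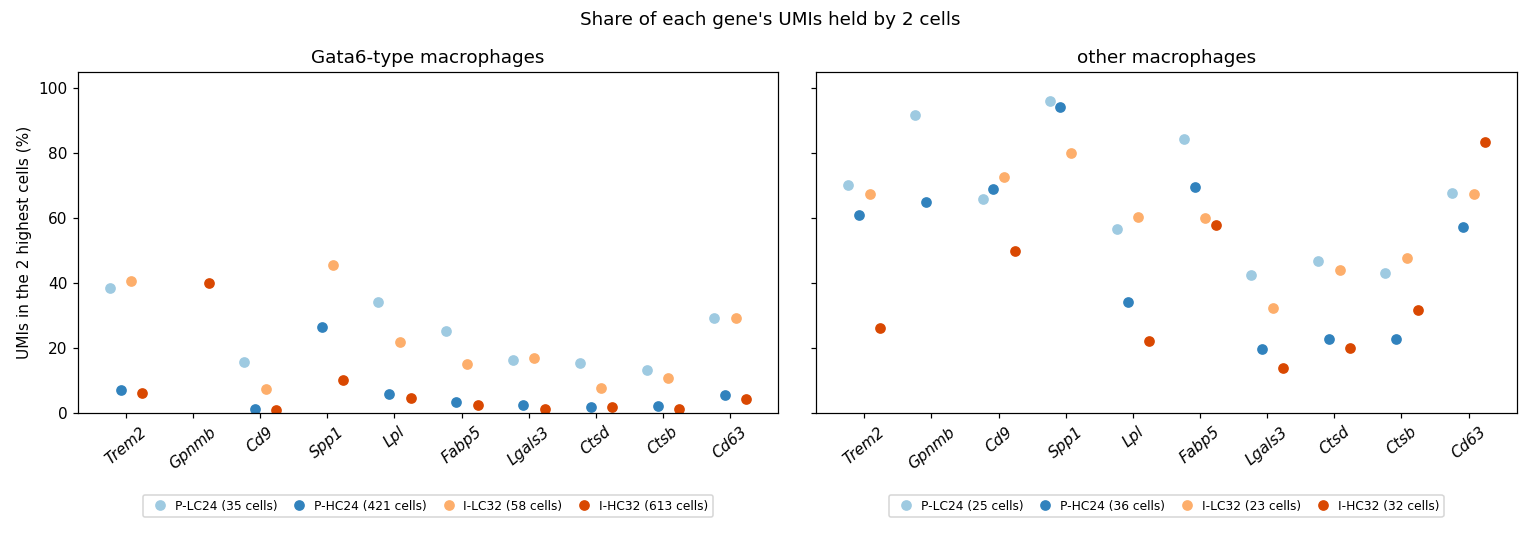
Share of a gene's UMIs (%) that lay in the 2 highest cells of a library, in Gata6-type macrophages on the left and other macrophages on the right, with 1 point per library and no point under 10 UMIs. In other macrophages 2 cells held 96% of the Spp1 UMIs of P-LC24 and 94.2% of those of P-HC24, and 91.7% of the Gpnmb UMIs of P-LC24.

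In classical monocytes the members leaned in opposite ways at the 2 weeks. At week 24, 4 of 7 compared were lower in P-HC24 (Trem2, Lpl, Fabp5 and Ctsb; 36.2% of all genes) and 2 higher (Cd9 and Lgals3; 19.6%), with a median of -0.29 against -0.11. At week 32, 4 of 7 were higher in I-HC32 (Cd9, Lpl, Fabp5 and Ctsd; 19.1%) and 1 lower (Trem2; 23.4%), with a median of 0.90 against -0.03. Single cells carried much of both. The Lpl ratio at week 24 became -0.25 without the top cells. In P-LC24, 212 of the 314 Fabp5 UMIs lay in 1 cell, and its log2 ratio of -2.02 (-2.39 to -1.67) became -0.03 without the top cells. In I-HC32, 2 cells with 69 and 14 Fabp5 UMIs, 26 and 42 Cd9 UMIs and 11 and 10 Spp1 UMIs passed the gate by Chil3 (82 and 60 UMIs) with no UMI of Ccr2 or Ly6c2. With Ccr2 or Ly6c2 required of every cell, a limit chosen after these cells were seen, the Fabp5 ratio at week 32 turned from 1.29 (0.91 to 1.66) to -0.78 and the median of the members became 0.025.

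Patrolling monocytes gave few comparable members. At week 24, 1 of 4 was higher in P-HC24 (Cd9; 20.2% of all genes) and 1 lower (Ctsd at -0.41 (-0.84 to 0.00), and -0.052 without the top cells; 24.6%), and at week 32, 2 of 5 were higher in I-HC32 (Cd9, and Ctsd at 0.54 (-0.01 to 1.09); 27.2%) and 1 lower (Fabp5; 17.4%). The medians were 0.11 and 0.21, against 0.00 and 0.05 over all genes. Fabp5 stood at 65.4, 15.8, 461 and 14.7 CPM and its log2 ratio of -4.97 (-6.86 to -3.59) rested on 173 UMIs in I-LC32 and 4 in I-HC32. Without the top cells it was -4.11. Of the 173 UMIs, 150 lay in 3 cells that also held 24, 14 and 13 UMIs of Ccr7, a gene of migrating dendritic cells, and none of Ace.

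Fabp5 and Cd63 marked the same small set among the dendritic cells. At week 24, 3 of 4 members compared were higher in P-HC24 (Fabp5, Lgals3 and Ctsb; 29.1% of all genes) and none lower (40.3%), with a median of 0.59 against -0.10. The Fabp5 ratio of 0.97 (0.49 to 1.46) rested on 58 UMIs in P-LC24, 37 of them in 1 cell, and 101 in P-HC24, 53 of them in 1 cell. It was 0.18 without the top cells and 0.023 with the gate minimum doubled. At week 32, 1 of 5 was higher in I-HC32 (Lgals3; 29.1%) and 2 were lower (Fabp5 and Cd63; 22.8%), with a median of -0.08 against 0.05. In I-LC32 and I-HC32, Fabp5 had 514 and 65 UMIs and Cd63 287 and 14. Both reached the limit of 100 UMIs only through I-LC32, so their count as lower is partly set by that limit. Cells with a UMI of both Ccr7 and Fscn1, genes of migrating dendritic cells, numbered 2 of 27, 2 of 27, 16 of 46 and 1 of 41, a split chosen after the data were seen. Fabp5 was at 1371, 1995, 2396 and 4280.1 CPM in them and at 41.1, 139.7, 27.6 and 28.4 CPM in the rest. Cd63 was at 822, 520.3, 1378 and 1275 CPM in them and at 11.4, 0, 0 and 0 CPM in the rest. The log2 ratios of -2.76 (-3.15 to -2.38) for Fabp5 and -4.13 (-5.02 to -3.36) for Cd63 at week 32 thus accompanied 16 such cells in I-LC32 and 1 in I-HC32. Without the 2 top cells of each library the Fabp5 value was -3.99. Lgals3 was at 0, 173, 202 and 1093 CPM in these cells and 716, 1219.6, 961 and 1129.7 CPM in the rest, lower in them in 3 libraries and within counting error in the single such cell of I-HC32.

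**Figure D5:**
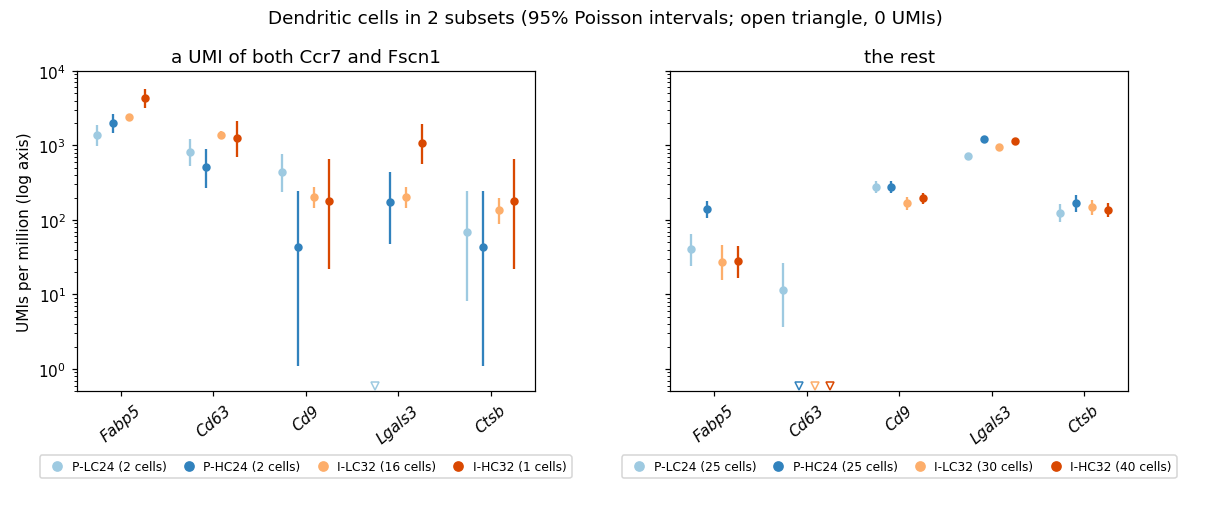
Level (CPM, log axis) of Fabp5, Cd63, Cd9, Lgals3 and Ctsb in dendritic cells with a UMI of both Ccr7 and Fscn1 (left) and in the rest (right), by library, with 95% counting intervals and open triangles for 0 UMIs. Fabp5 and Cd63 lie higher in the cells with both genes in all 4 libraries.

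The 36 related genes, which cover TREM2 signalling (such as Tyrobp, Syk and Plcg2), transcription factors of the lysosome (Mitf, Tfeb, Tfe3 and Tfec), lysosomal enzymes and membrane proteins, lipid handling and other genes of the macrophage state, were read in the same way, each count beside the shares of all genes higher and lower and the median over all genes. In Gata6-type macrophages 13 of 31 compared were higher and 6 lower in P-HC24 (all genes 21.0% and 36.3%), with a median of 0.18 against -0.12. In I-HC32 5 were higher and 4 lower (16.3% and 29.3%), for a median of 0.07 against -0.09. At week 24 the highest were Igf1, a growth factor, at 0.82 and Hexa, a lysosomal hexosaminidase, at 0.68, and the lowest Cd36, a fatty acid receptor, at -0.43 and Tfec at -1.39. At week 32 Fabp4, a fatty acid carrier like Fabp5, was at 0.67 and Apoe at 0.58, with Tfeb at -0.30 and Tfec at -0.73 the lowest. Tfec was thus the lowest of the list at both weeks.

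In other macrophages 10 of 27 related genes were higher and 9 lower in P-HC24 (all genes 29.8% and 37.4%), with a median of 0.14 against -0.06. In I-HC32 6 of 25 were higher and 9 lower (26.2% and 26.4%), for a median of -0.14 against 0.00. The actin-capping protein gene Capg was at 1.41 and the TREM2 signalling enzyme gene Plcg2 at 0.79, while the lysosomal protease gene Lgmn was at -1.41 and Igf1 at -2.24. Igf1 thus had opposite signs in the 2 macrophage classes at week 24, a difference that was not tested. At week 32 Mitf and Cd36 were highest, at 0.49 and 0.49, and Creg1, a lysosomal glycoprotein gene, and Apoe lowest, at -0.79 and -1.06. Against P-HC24, I-HC32 had 4 of 26 higher and 13 lower (all genes 28.5% and 20.8%), with a median of -0.27 against 0.04.

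Among classical monocytes 5 of 27 related genes were higher and 7 lower at week 24 (all genes 19.6% and 36.2%, median -0.04 against -0.11), led by Capg at 0.88 and Cd36 at 0.87, with Lgmn at -1.01 and Apoe at -1.05 the lowest. At week 32, 9 of 28 were higher and 3 lower (all genes 19.1% and 23.4%, median 0.20 against -0.03), with Fabp4 at 3.88, Mitf at 1.07, Tfeb at -0.34 and the acid lipase gene Lipa at -0.44. The 2 cells of I-HC32 that passed the gate by Chil3 without Ccr2 or Ly6c2 are included here. Their part in these values was not tested. Patrolling monocytes had 5 higher and 4 lower of 26 at week 24 (all genes 20.2% and 24.6%, median -0.01 against 0.00), from Apoe at 0.49 and Hexa at 0.37 to Mitf at -1.04 and the cathepsin inhibitor gene Cstb at -1.65. Apoe was thus lower in classical and higher in patrolling monocytes of P-HC24, a difference that was not tested. At week 32 they had 3 higher and 4 lower of 19 (all genes 27.2% and 17.4%, median -0.02 against 0.05), from Fabp4 at 0.79 and Apoe at 0.49 to the cathepsin gene Ctsz at -0.51 and the glucan receptor gene Clec7a at -0.69. In dendritic cells 11 of 15 were higher and 2 lower in P-HC24 (all genes 29.1% and 40.3%, median 0.49 against -0.10), with Clec7a at 3.11 and the TREM2 adaptor gene Tyrobp at 1.18, and Plcg2 at -0.36 and the saposin gene Psap at -0.59 at the other end. At week 32, 8 of 21 were higher and 5 lower (all genes 29.1% and 22.8%, median 0.15 against 0.05), from Clec7a at 0.94 and Capg at 0.63 to Creg1 at -0.83 and Cstb at -1.17. Clec7a was thus the highest of the list in dendritic cells at both weeks. The makeup of the dendritic cells differed between the libraries, as given for Xcr1 and Cd209a, and its part in these ratios was not tested. Prog and Int share no library, but the same mice were sampled at both weeks.

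Across 38 combinations of class and library, comparators such as B, T and NK cells included, the members did not vary as 1 group. Pearson correlations of log2(CPM + 1) were highest for Trem2 with Ctsb (0.92), Lpl with Ctsb (0.90) and Trem2 with Lpl (0.90), and lowest for Cd9 with Gpnmb (-0.28). Among 6157 genes with a mean of at least 20 CPM, the patterns most like Trem2 were those of Gab1 (0.95) and Fcgr1 (0.93). Ctsb was nearest to Plxnb2 (0.94) and Dpep2 (0.94), and Ctsd to Sntb2 (0.89) and Nfia (0.83). Lgals3 was nearest to Cd300a (0.94) and Fes (0.93), Cd9 to Srgn (0.80) and Plek (0.74), and Spp1 to Dhrs3 (0.71) and Rap2b (0.71). Fabp5 was nearest to Ccrl2 (0.85) and Trf (0.83), Cd63 to Fosb (0.83) and Klf6 (0.79), and Gpnmb, itself under 20 CPM on average, to BC005537 (0.72) and Lpl (0.71). The points share libraries and differ in depth, and these values are a description.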

How the data were processed

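Raw counts of UMIs for every gene in every cell barcode were deposited by the authors, who had made them with Cell Ranger 9.0.1 on the mouse reference GRCm39. The submitters' processing notes also name Seurat 5.3, whose output was not used here. No normalization, doublet removal or correction for free RNA had been applied to these counts. Each of the 4 conditions was 1 library of 12 pooled biopsies of 3 mice, and libraries were matched to conditions by their labels.

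Cells with at least 500 UMIs, at least 300 genes and at most 10% mitochondrial UMIs were kept. Classes were gated on raw marker UMIs, with at least 2 markers detected and at least 5 UMIs for macrophages and 3 for monocytes and dendritic cells, and cells with more than 5 UMIs of B or T cell markers were left out of the gates. Doublets were otherwise kept, and their removal with Scrublet in scanpy 1.11.5 was an alternative, which took 0 to 9 cells of a class in a library. The estimated share of free RNA in a class was 0.291% to 2.82%, and it was subtracted as a further alternative.

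UMIs were summed per class and library and given as CPM, with exact Poisson intervals, and shares of cells with exact Clopper-Pearson intervals, all at 95%. A count of 0 was read against a floor of 3 counts. These intervals and floors cover counting error only. Ratios between libraries were made in classes with at least 20 cells in both, for genes that 10% or more of the cells of 1 of the libraries held and that had 100 or more UMIs in the pair, and a gene was counted as higher or lower from 1.2-fold. A gene could pass these limits through 1 library alone, and its direction was then partly set by them. Shares were compared after thinning each cell to 5000 UMIs, and cells with fewer UMIs were left out of the thinned shares. On simulated counts 96.0% of the intervals of 7150 genes in Gata6-type macrophages covered the true ratio. Those counts were independent Poisson draws, so they check the calculation only and leave out the clustering of UMIs in single cells. Counts were summed and tested for coverage in Python 3.11.15 with pandas 2.3.3 and numpy 2.4.6, intervals came from scipy 1.17.1, and plots from matplotlib 3.10.9.

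All members were named. Of the 36 related genes, the 2 with the highest and the 2 with the lowest log2 ratio in each class and comparison were named, and for each member the 2 genes with the most similar levels. The genes most similar to Lpl are not reported here. The members and lists were chosen with earlier results of these data known. Gene positions come from the GENCODE annotation vM39 of GRCm39.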

Additional observations from a re-analysis of the deposited data

Results flagged for a closer look

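For 6 pairs of gene and class the ratio of the high to the low cholesterol library lay on opposite sides of 0 at the 2 weeks, each by at least 1.2-fold. Each condition had 1 library, so the difference was not tested in any of them. Fabp5 gave the widest gaps, with the log2 ratio at week 32 above that at week 24 by 3.31 in classical monocytes (-2.02 and 1.29), and the value for dendritic cells was -3.73 (0.97 and -2.76). In classical monocytes the gap for Lpl was 2.25 (-0.63 and 1.61). In Gata6-type macrophages Trem2 gave -0.83 (0.50 and -0.32) and Lgals3 gave -0.67 (0.28 and -0.39). Ctsd in patrolling monocytes gave 0.95 (-0.41 and 0.54). The Fabp5 ratio of classical monocytes at week 32 became -0.42 and the Trem2 ratio of Gata6-type macrophages 0.26 without the 2 top cells of each library, so that neither pair then lay on opposite sides. Without those cells none of the other 4 pairs kept 1.2-fold on both sides, with Fabp5 in dendritic cells at 0.18, Ctsd in patrolling monocytes at -0.052 and Lpl in classical monocytes at -0.25 at week 24, and Lgals3 in Gata6-type macrophages at -0.23 at week 32.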

How the results depend on the processing

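With 1 library per condition no replicate could be left out. No paired analysis was possible, because the mice of a group were pooled in 1 library and cells cannot be assigned to mice. Of 274 values of the class medians and counts at weeks 24 and 32 under other settings, 246 stayed near the reported value, 26 moved and 2, reported past 1.2-fold, changed sign. For single genes and the comparisons over time, 1224 of 1391 stayed near it, 153 moved and 14, likewise past 1.2-fold, changed sign. Values reported within 1.2-fold that crossed 0 are counted by how far they moved. With mean UMIs per cell in place of CPM, the median log2 ratio of the members was -0.32 at week 24 and -0.34 at week 32 in Gata6-type macrophages, 0.48 (changed sign) and -0.045 in other macrophages and -0.42 at week 24 in patrolling monocytes, and 4 members differed at week 32 in other macrophages. The medians of Gata6-type macrophages and patrolling monocytes crossed 0 in this way at week 24, as did Cd9 (-0.32) and Ctsd (-0.33) in Gata6-type macrophages and Trem2 (0.77) and Cd63 (0.62) in other macrophages. With that setting Trem2 (-0.031) and Lgals3 (-0.26) in Gata6-type macrophages, Spp1 (0.34) and Ctsb (0.12) in other macrophages and Cd9 (-0.11) in patrolling monocytes changed sign at week 24, as did Ctsb and the median from P-LC24 to I-LC32 in Gata6-type macrophages (both -0.037). With the mean of each cell's own share, the median in other macrophages was 0.33 (changed sign) at week 24 and -0.57 at week 32, 1 member differed in patrolling monocytes at week 24, and Spp1 in other macrophages (1.28), Trem2 in classical monocytes (0.057) and Ctsb in dendritic cells (-0.075) changed sign at week 24. With at least 20 UMIs and no minimum share of cells, medians were -1.23 in other macrophages at week 32 and -0.66 and 1.29 in classical monocytes at the 2 weeks, and 6 members differed in other macrophages at week 32 and 5 in patrolling monocytes at week 24. From 1.5-fold, the members that differed numbered 3 in Gata6-type macrophages at week 32, 4 in other macrophages, 3 in classical and 0 in patrolling monocytes at week 24, and 1 in patrolling monocytes at week 32. From 2-fold, they numbered 3, 1, 0 and 0 in other macrophages, classical monocytes, patrolling monocytes and dendritic cells at week 24, and 1, 1, 3 and 1 in Gata6-type macrophages, other macrophages, classical and patrolling monocytes at week 32. With Ccr2 or Ly6c2 required in classical monocytes, the median at week 32 was 0.025 and Fabp5 was -0.78. Without the 2 top cells of each library, Trem2 in Gata6-type macrophages (0.26) and Fabp5 in classical monocytes (-0.42) changed sign at week 32 and Gpnmb in other macrophages (0.27) at week 24. Apart from fewer cells, UMIs or genes entering, the cause of these moves was not tested. Depth limits Gpnmb and Trem2 most, with 326 and 1468 UMIs in all kept cells, and week 32 ratios in other macrophages rest on 23 and 32 cells.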
